A study of Mus musculus with 15 samples.

Results

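The organic ion carriers of the Slco and Slc22a families and the ABC proteins of subfamilies A to G were examined in ribosome profiling libraries of mouse liver. Genes were chosen by symbol alone, and Abcb11, Abcg5 and Abcg8, which export bile salts and sterols, were set aside by the rule. The name rule matched 86 genes, of which 53 had a transcript with a mean of at least 10 reads per library and are the transporters described here, among 11655 genes that met the same minimum. Ribosome profiling sequences the mRNA fragments that ribosomes protect, called footprints, so a count follows both mRNA abundance and its use by ribosomes. All 14 libraries came from livers of wild-type C57BL/6N male mice aged 8 to 10 weeks, kept under 12 h of light and 12 h of dark and then in constant darkness. One mouse gave one library, with 2 mice at each of 7 circadian times, every 4 h from CT0, the start of the subjective day, to CT24. No other genotype, treatment or sex was used, and each time was sampled in a single cycle.

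Hepatocytes take up bile salts, hormones and drugs from blood through the organic anion transporting polypeptides (OATPs, Slco genes) and the Slc22a carriers for organic anions and cations. ABC proteins use ATP to move their substrates, and those at the canalicular membrane (Abcc2, Abcb4, Abcg2, Abcb1a) export into bile while Abcc3 returns conjugates to blood. Other ABC proteins move lipids (ABCA), load peroxisomes with acyl-CoA (ABCD genes such as Abcd3) or serve iron and haem metabolism in mitochondria (such as Abcb6, Abcb8 and Abcb10). Abce1 and the ABCF proteins have the ATP-binding domains but transport nothing and act in translation.

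The total count per library ran from 40593197 to 90458783, and the transporters together held 0.155% to 0.294% of it, or 79982 to 201930 reads. The hepatocyte list was abundant, with 40800 to 55800 summed CPM (read counts scaled to a common library size) over 8 genes, and kidney markers were near 0, with 3 of 6 at 0 reads in all libraries. Pancreatic acinar markers stood at 2420 CPM over 5 genes in CT20 replicate 2 against at most 48.5 CPM in the other libraries. In CT16 replicate 2, 100% of nonzero counts were even, against 48.9% to 50.4% in the others. The labels name a second run of this library without a file of its own, and the reads of CT16 replicate 2 as printed here may each have been counted 2 times. With the counts of this library halved the cosine fit below gave the same number of calls, 9 (11.3% of all transcripts). The 21 Mup transcripts, which encode major urinary proteins from near-identical gene copies, took 42.1% to 70.7% of the counts, so the choice of scaling mattered and is given with the results. A whole-liver count cannot separate fewer cells of a type from fewer footprints per cell.

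Footprint density was compared between genes as RPKM, coding reads per kilobase on the TMM scale of CPM. The 53 means spanned 3110-fold. Slco1b2, the main hepatic OATP, was the densest at 215 ± 55.5 RPKM (SD, n = 14), with libraries from 123 to 295, and held 24.9% of the summed density of the transporters. Abcd3, a peroxisomal transporter, had 124 ± 18.9 and Slco1a1, an OATP for steroid conjugates, 72.4 ± 11.2. Slc22a18, a carrier of unsettled substrate, had 54.8 ± 6.46 RPKM and Abcc2, the canalicular exporter of conjugates, had 36.3 ± 10.9. Further down, neighbours lay within 1 SD of each other apart from the step between Abcg2 and Slco2a1, with Slco2b1 at 28.2 ± 4.19, Abcc3 at 27.3 ± 4.57, Abcg2 at 25.4 ± 3.53, Slco2a1 (the prostaglandin transporter) at 20.0 ± 3.65, Abcb4 (the phospholipid floppase) at 18.5 ± 3.12 and Abca1 (the cholesterol exporter to HDL) at 17.8 ± 2.14. The 12 densest genes held 82.2% of the summed density.

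**Figure D1:**
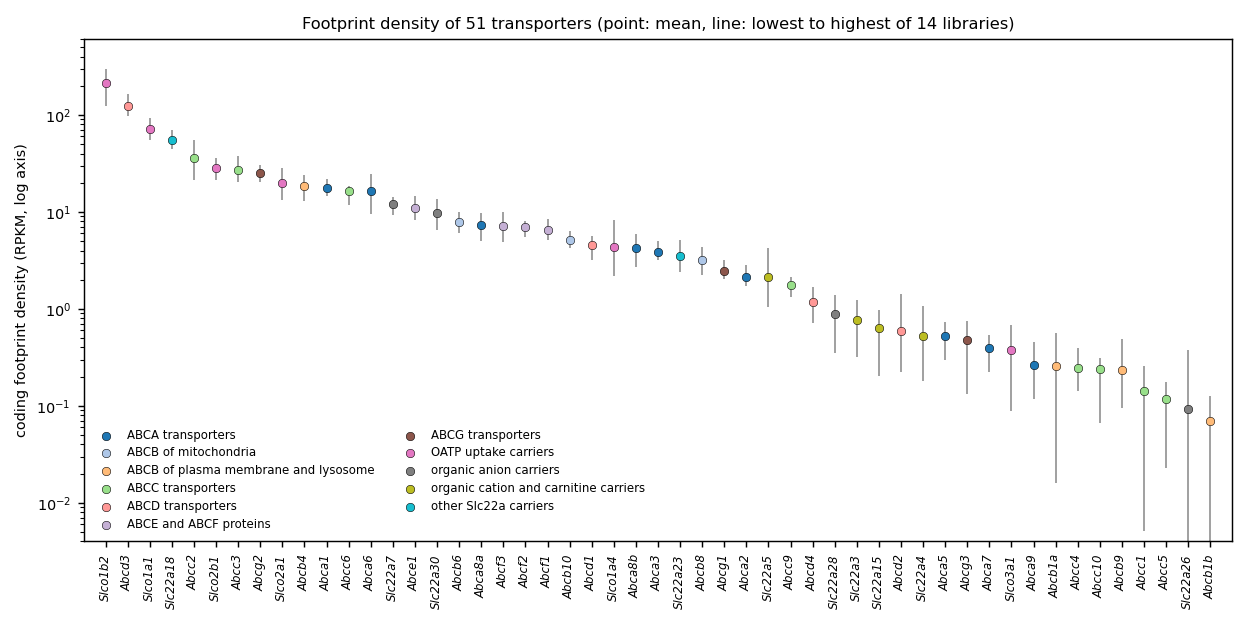
Coding footprint density (RPKM, log axis) of 51 transporters in order of their mean. Points are means over 14 libraries coloured by role, and lines run from the lowest to the highest library, cut at the axis where the lowest is 0. Slco1b2 stands highest at 215 RPKM.

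By role, the 6 OATPs held 39.3% of the summed density, the 4 ABCD genes 15.1%, the 8 ABCC genes 9.54%, the 5 organic cation and carnitine carriers 8.67%, the other 2 Slc22a carriers 6.75% and the 9 ABCA genes 6.11%. The multidrug exporter genes Abcb1a (0.26 ± 0.162 RPKM) and Abcb1b (0.0692 ± 0.042 RPKM) were near the bottom, as were Abcc1 (0.144 ± 0.0674), Abcc4 (0.246 ± 0.0729) and Abcc5 (0.118 ± 0.0479). Of the 33 matched genes under the minimum, 16 had 0 reads in every library, among them Slc22a8 (the renal carrier OAT3), Abcc8 (the sulfonylurea receptor), Abca12, Abcb5 and Slco4c1. Slc22a6, the renal carrier OAT1, had reads in 1 library and Slc22a2, OCT2, in 3. At the minimum itself, Slc22a26 with a mean of 10.07 reads was kept and Slc22a17 with 5.71 was not. Their reads per library ran from 0 to 36 and from 0 to 13. The study's methods name uniquely placed reads for its density profiles and do not say whether the deposited counts were limited to them, so values of close relatives (Abcb1a and Abcb1b, Abca8a and Abca8b, Slco1a1 and Slco1a4, and Slc22a26, Slc22a28 and Slc22a30) may hold reads of each other.

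To ask which transporters followed a 24 h course, a cosine was fitted to TMM-scaled counts by edgeR's quasi-likelihood test, with Benjamini-Hochberg adjustment over 17299 transcripts. It called 9 of 53 transporters (17.0%) at an adjusted p under 0.05, where it called 11.3% of all genes. Fitted peak-to-trough differences had a median of 0.44 on the log2 scale in the transporters and 0.44 in all genes tested. The 9 were Abcc2, Abca6, Slco1b2, Abca8b, Slc22a15, Slco2b1, Abcf1, Slc22a28 and Abca8a. By role these were 3 of 9 ABCA genes, 2 of 6 OATPs, 1 of 8 ABCC genes, 1 of 4 ABCE and ABCF genes, 1 of 4 organic anion carriers and 1 of 5 cation and carnitine carriers. None of the 8 ABCB genes, 4 ABCD genes or 3 ABCG genes that met the minimum was called. Abcb4 came closest to the threshold with an adjusted p of 0.0555, and 6 of 23 other settings called it (below). In all, 16 transporters had an unadjusted p under 0.05, and the share of all genes at that level was not counted.

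**Figure D2:**
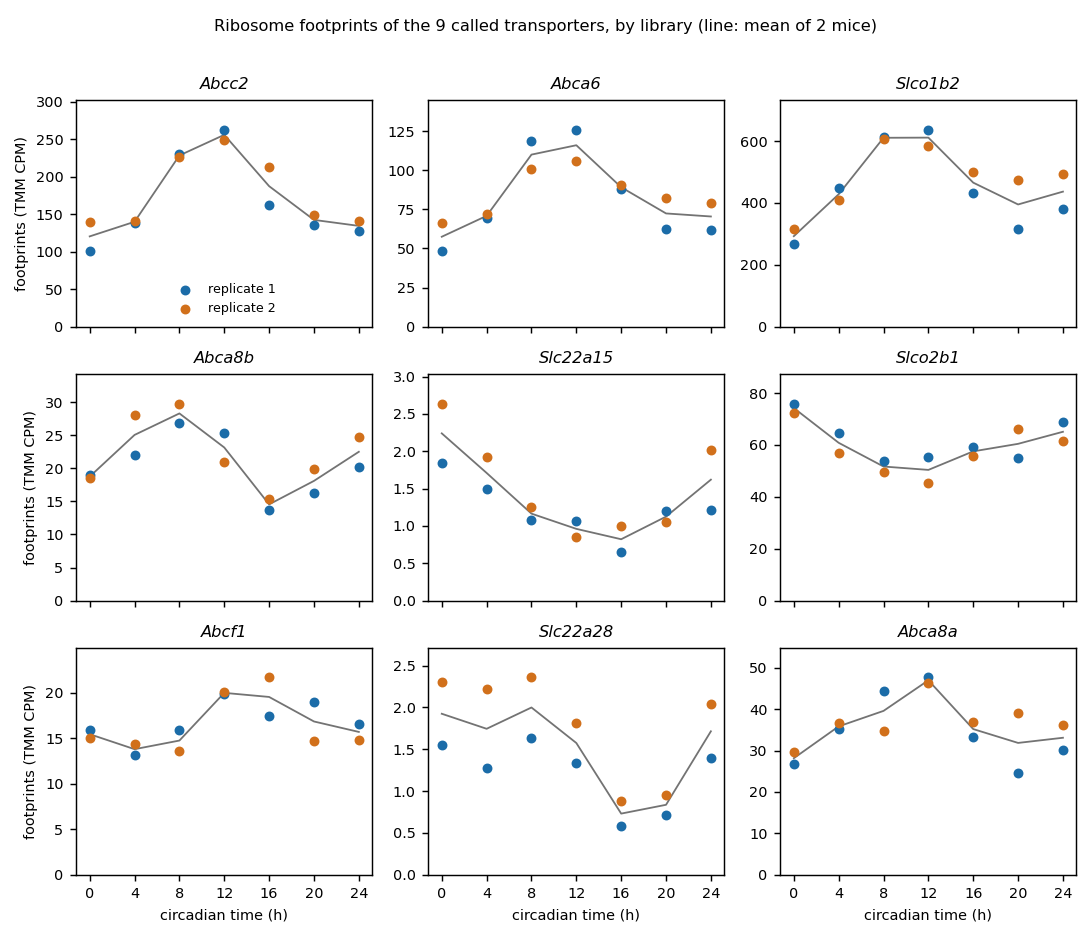
TMM-scaled CPM of the 9 called transporters against circadian time (h), each axis from 0. Points are single libraries (replicate 1 blue, replicate 2 orange) and lines join the means of 2 mice. Abcc2, Abca6 and Slco1b2 are highest at CT8 and CT12.

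Abcc2, which exports bilirubin glucuronide and other conjugates into bile, had 101 and 140 CPM at CT0, 139 and 141 at CT4, 231 and 226 at CT8, 263 and 249 at CT12, 162 and 213 at CT16, 136 and 149 at CT20 and 128 and 141 at CT24. The 4 libraries of CT8 and CT12 lay above all 10 others. The fitted peak was at CT11.4 ± 0.51 h (SE), with a peak-to-trough difference of 1.02 ± 0.12 log2 units, or 2.03-fold, and an adjusted p of 5e-05 (edgeR).

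Abca6, a lipid transporter gene of the ABCA cluster on chromosome 11, had 48.6 and 66.4 CPM at CT0, 69.8 and 71.9 at CT4, 119 and 101 at CT8, 126 and 106 at CT12, 87.7 and 90.6 at CT16, 62.6 and 82.2 at CT20 and 61.7 and 79.2 at CT24. Again CT8 and CT12 lay above every other library. The peak was at CT11.3 ± 0.696 h, the difference 0.89 ± 0.15 log2 units and the adjusted p 0.000876 (edgeR).

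Slco1b2, the mouse counterpart of human OATP1B1 and OATP1B3 and the densest transporter, had 268 and 317 CPM at CT0, 447 and 409 at CT4, 613 and 608 at CT8, 637 and 585 at CT12, 432 and 499 at CT16, 315 and 475 at CT20 and 379 and 494 at CT24. CT8 and CT12 did not overlap with the rest, and the mice of CT20 and CT24 lay furthest apart. The peak was at CT10.6 ± 0.901 h, with a difference of 0.80 ± 0.18 log2 units (1.74-fold) and an adjusted p of 0.00647 (edgeR). An uptake carrier at the sinusoidal membrane and an exporter at the canalicular membrane had fitted peaks whose standard errors overlapped.

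Abca8b, an exporter of cholesterol and other lipids next to Abca8a in the cluster, peaked earlier. It had 19 and 18.5 CPM at CT0, 22 and 28.1 at CT4, 26.8 and 29.8 at CT8, 25.4 and 20.9 at CT12, 13.7 and 15.4 at CT16, 16.3 and 19.9 at CT20 and 20.2 and 24.8 at CT24. Both CT16 libraries were below all others. The fitted peak was at CT6.34 ± 0.671 h, the difference 0.82 ± 0.16 log2 units and the adjusted p 0.00721 (edgeR). These 4 genes were called in all 14 fits that left out 1 library each. With both libraries of a time left out, Slco1b2 was not called without CT8 (adjusted p = 0.0504) or CT12 (0.055) and Abca8b was not called without CT8 (0.0713).

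Abca8a had 26.7 and 29.6 CPM at CT0, 35.1 and 36.6 at CT4, 44.5 and 34.7 at CT8, 47.7 and 46.3 at CT12, 33.4 and 37.0 at CT16, 24.5 and 39.2 at CT20 and 30.1 and 36.1 at CT24. Both libraries of CT12 were the highest, while CT8 and CT20 overlapped. The fit peaked at CT10.6 ± 1.13 h with a difference of 0.54 ± 0.15 log2 units and an adjusted p of 0.0457 (edgeR), and 10 of the 14 fits without 1 library did not call it, with CT16 replicate 1, CT20 replicate 2, CT24 replicate 2 and CT8 replicate 2 the ones whose absence kept the call.

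Slco2b1, an OATP of broad tissue distribution, ran opposite to Slco1b2. It had 76.0 and 72.5 CPM at CT0, 64.6 and 57.1 at CT4, 53.9 and 49.5 at CT8, 55.4 and 45.4 at CT12, 59.3 and 55.8 at CT16, 54.9 and 66.0 at CT20 and 68.8 and 61.4 at CT24. Both CT0 libraries were above all others. The fitted peak was at CT23.3 ± 0.915 h, the difference 0.45 ± 0.09 log2 units and the adjusted p 0.0369 (edgeR). Only 5 of the 14 fits without 1 library called it (those without CT12 replicate 1, CT16 replicate 1, CT20 replicate 1, CT24 replicate 2 or CT4 replicate 2).

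Abcf1, a translation factor and no transporter, had 15.9 and 15.0 CPM at CT0, 13.2 and 14.4 at CT4, 15.9 and 13.6 at CT8, 19.9 and 20.1 at CT12, 17.4 and 21.7 at CT16, 19 and 14.7 at CT20 and 16.6 and 14.8 at CT24. Both CT12 libraries lay above all 8 libraries of CT0, CT4, CT8 and CT24, and the CT20 libraries lay on either side of that of CT16 replicate 1. The peak was at CT15.5 ± 0.861 h, with a difference of 0.51 ± 0.12 log2 units and an adjusted p of 0.0401 (edgeR). It was called in 4 of 14 fits without 1 library (CT0 replicate 1, CT16 replicate 1, CT20 replicate 2 or CT24 replicate 1).

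The remaining pair were lowly read. Slc22a15, a carrier of zwitterions and cations, had 109 and 164 reads at CT0, 96 and 102 at CT4, 86 and 79 at CT8, 87 and 49 at CT12, 40 and 50 at CT16, 50 and 63 at CT20 and 60 and 115 at CT24. In CPM the time mean was highest at CT0, with 1.84 and 2.64, and lowest at CT16, with 0.648 and 0.996, and single libraries of neighbouring times overlapped. The fit gave a peak at CT2.03 ± 0.792 h, a difference of 1.25 ± 0.24 log2 units and an adjusted p of 0.0187 (edgeR), and of the 14 fits without 1 library the one without CT16 replicate 1 lost the call (adjusted p = 0.0504). With coding reads alone the call was lost as well (adjusted p = 0.117, peak at CT3.11), and 23.7% of this gene's reads lay in its 5′UTR. It was also lost without both libraries of CT0 (0.112), CT4 (0.0524) or CT16 (0.088). Slc22a28, a carrier of the rodent organic anion cluster, had 92 and 143 reads at CT0, 82 and 117 at CT4, 131 and 149 at CT8, 109 and 104 at CT12, 36 and 44 at CT16, 30 and 57 at CT20 and 68 and 116 at CT24. All 4 libraries of CT16 and CT20 were below the rest. Its peak was at CT5.21 ± 0.829 h, with a difference of 1.45 ± 0.35 log2 units and an adjusted p of 0.0407 (edgeR), kept in 5 of 14 fits without 1 library (CT0 replicate 2, CT12 replicate 2, CT24 replicate 2, CT4 replicate 1 or CT8 replicate 1).

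Of the 9 fitted peaks, 4 (44.4%) lay between CT9 and CT15, where 28.2% of all called genes had theirs. No test of this share was made.

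**Figure D3:**
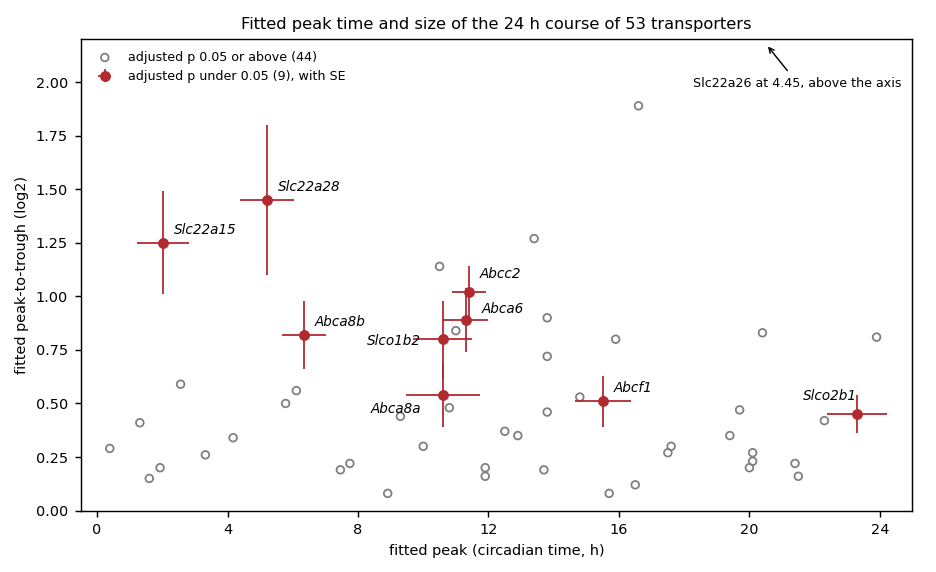
Fitted peak (circadian time, h) against fitted peak-to-trough difference (log2) for the 53 transporters. Red points with standard errors are the 9 called genes and open circles the others, and Slc22a26, fitted at 4.45 on few reads, is above the axis. Abcc2, Abca6, Slco1b2 and Abca8a lie together at CT10.6 to CT11.4.

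Most of the abundant transporters did not pass. Abcd3 had a fitted difference of 0.35 ± 0.15 log2 units (adjusted p = 0.272), Slco1a1 0.44 ± 0.16 (0.134), Slc22a18 0.16 ± 0.13 (0.725), Abcc3 0.27 ± 0.19 (0.574), Abcg2, the exporter of urate and drugs, 0.30 ± 0.14 (0.333), Slco2a1 0.41 ± 0.16 (0.216), Abca1 0.27 ± 0.12 (0.376) and Slc22a7, the anion carrier OAT2, 0.22 ± 0.16 (0.628), all by edgeR. Abcb4 had 50.9 to 93.3 CPM and a difference of 0.48 ± 0.13 with a fitted peak at CT10.8 ± 1.13 h. With edgeR it was called without CT20 replicate 2 (adjusted p = 0.0463) and without CT24 replicate 2 (0.0143). Of 23 other settings 6 called it, among them DESeq2's test (adjusted p = 0.0154). With edgeR these included TMM without the Mup transcripts (0.0456), a minimum of 100 counts (0.0367) and a replicate block (0.0333). Slco1a1, with 125 to 222 CPM, was called without CT20 replicate 2 (0.0298). Slco1a4, an OATP induced by xenobiotics, had 4.59 to 17.0 CPM, and its mice at CT12 lay far apart, with 17.0 and 6.24 CPM (adjusted p = 0.18). Abcb1a had 4 to 136 reads per library and an adjusted p of 0.135, and was called without CT24 replicate 2 (0.0419). Slc22a26, with 0 reads in 4 libraries, was called without CT20 replicate 1 (0.0304) among the 9 of 14 fits in which it kept the minimum.

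Of the scalings tried, DESeq2 size factors kept all 9 calls, the upper quartile 8 of them and TMM without the Mup transcripts all 9, while the plain total count lost most. With the total count as the scale, 1 of the 53 passed, Slc22a15 (adjusted p = 0.00943), where 8.25% of all transcripts did. The adjusted p was then 0.136 for Abcc2, 0.299 for Abca6, 0.463 for Slco1b2, 0.131 for Abca8b, 0.0592 for Slco2b1, 0.257 for Abcf1, 0.0545 for Slc22a28 and 0.955 for Abca8a. The fitted peak-to-trough difference fell for some of these genes, to 0.59 log2 units for Abcc2, 0.47 for Abca6, 0.35 for Slco1b2 and 0.09 for Abca8a. It was 0.71 for Abca8b, 1.43 for Slc22a28, 0.61 for Abcf1 and 0.93 for Slco2b1. Total-count scaling moved all genes of a library together relative to TMM, from -0.44 log2 units in CT12 replicate 2 to 0.55 in CT0 replicate 1, and the Mup share was 70.7% in the first and 42.1% in the second. With the Mup transcripts left out before scaling by the total count, 9 transporters passed, 8 of them among the 9 above, against 10.7% of all transcripts. Abcc2 then had an adjusted p of 2.8e-05, Abca6 0.000284, Slco1b2 0.00202 and Abca8b 0.00203, Abcf1 was lost (0.129) and Abcb4 gained (0.0423).

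**Figure D4:**
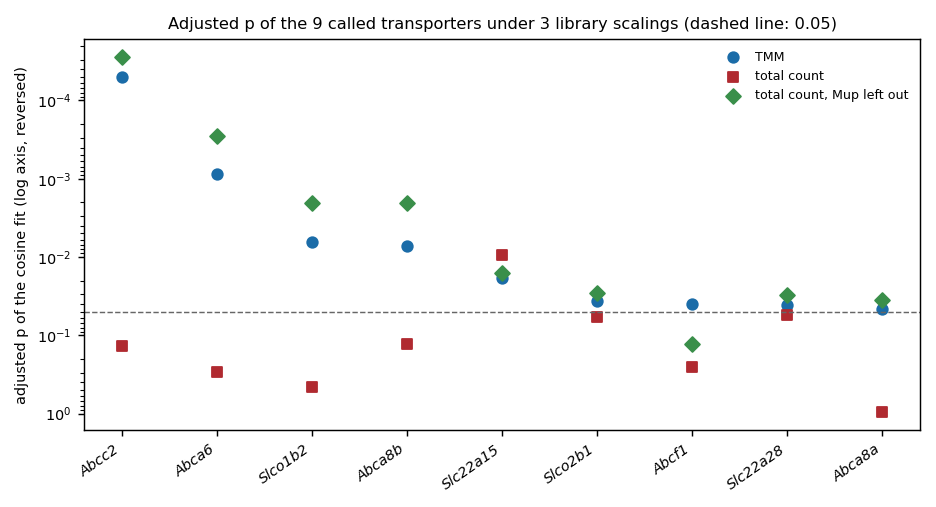
Adjusted p of the cosine fit (log axis, smaller values upward) for the 9 called transporters under TMM (circles), total count (squares) and total count without the Mup transcripts (diamonds), with a dashed line at 0.05. With the plain total count only Slc22a15 is past the line.

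A measure in which the library scale cancels was the log2 level of each gene minus a mean log2 level in the same library. The mean was that of the 37 transporters with a mean of at least 100 reads, which include the genes compared with it. That mean itself ran from 4.48 to 4.79, with a fitted difference of 0.13 ± 0.06 and a peak at CT12.1 that enter each value. Relative to it, Abcc2 had a peak-to-trough difference of 0.90 ± 0.11 with a peak at CT11.3, Abca8b 0.83 ± 0.17 at CT5.74, Abca6 0.78 ± 0.11 at CT11.2, Slco1b2 0.73 ± 0.15 at CT10.3 and Slco2b1 0.57 ± 0.11 at CT23.5. The other called genes among the 37 had smaller values, with 0.44 ± 0.12 for Abca8a and 0.43 ± 0.15 for Abcf1. Genes that the cosine fit did not call reached similar sizes with larger errors, with 0.76 ± 0.41 for Slco1a4, 0.58 ± 0.25 for Abcd4 and 0.57 ± 0.19 for Abca7. These are descriptions and carry no test.

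The cosine results also depended on single libraries and times. Without CT16 replicate 2, 5 of 52 transporters were called, against 9.03% of all transcripts. All 5 were among the 9 (Abcc2, Abca6, Slco1b2, Abca8b and Slc22a15). Without CT20 replicate 2, the library with acinar markers, 9 of 52 were called, against 10.7% of all transcripts. Of these 7 were shared, with Slc22a28 (adjusted p = 0.07) and Slco2b1 (0.0522) lost. Without both libraries 7 of 52 were called, 6 of them shared, against 8.56% of all transcripts. JTK_CYCLE, a rank test for rhythms, called 3.45% of all transcripts and 3 transporters on TMM values, Abcc2 (adjusted p = 0.0194), Abca6 (0.0276) and Slc22a15 (0.021).

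A fit that gave each of the 7 times its own level asked for any change over time. It called 4 of 53 transporters (7.55%) against 7.04% of all genes, a share near the background. The 4 were Abcc2 (adjusted p = 0.00167), Abca6 (0.0121), Slco1b2 (0.0142) and Abca8b (0.0311), each also called by the cosine fit with edgeR. Without CT0 replicate 1 only Abcc2 and Abca6 were called, where 5.42% of all transcripts were. DESeq2's likelihood ratio test called 7 of the 51 transporters to which it gave an adjusted p. It called 12.8% of all 17299 transcripts, a share that also counts those without an adjusted p. With the total count as the scale 6 of 53 were called, none of them among the 4, and 12.7% of all transcripts.

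CT24 was set against CT0 to see whether values returned after one cycle. With edgeR, 0 of 53 transporters differed, where 0.0% of all genes did, and 873 transcripts (5.05%) had an unadjusted p under 0.05. DESeq2 called 2 transcripts and 0 transporters. The transporters with an unadjusted p under 0.05 were Slco1b2, higher at CT24 by 0.58 log2 units (adjusted p = 0.957, edgeR), and Slc22a30, higher by 0.53 (adjusted p = 0.957, edgeR). For Slco1b2 both CT24 mice (379 and 494 CPM) lay above both CT0 mice (268 and 317 CPM), with an unadjusted p of 0.00797 (edgeR) that did not pass the adjustment over all transcripts.

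Levels of the most rhythmic genes were compared with all other transporters by Pearson's r of log2 CPM over the 14 libraries, which share scaling and mice. Abcc2 was most like Abca6 (r = 0.954), Slco1b2 (0.885) and Abcb4 (0.818). Abca6 was most like Abcc2, then Slco1b2 (0.941) and Abcb4 (0.876). Slco1b2 was nearest to Abca6, Abcb4 (0.896) and Abca8a (0.89). Abca8b was nearest to Slc22a28 (0.771), Slco1a1 (0.698) and Slc22a30 (0.612), and Slc22a15 to Slc22a28 (0.662), Slco2a1 (0.557) and Slco2b1 (0.538).

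Several transporters lie side by side in the genome, and the ratio of neighbours within a library does not depend on scaling. All 13 pairs of adjacent members less than 200000 bp apart were compared by a permutation test of the cosine fit with 100000 shuffles of the libraries, a test chosen after the data had been seen. The ABCA cluster on chromosome 11 holds Abca8b (chr11:109932206-109996274), Abca8a (chr11:110025634-110097580), Abca9, Abca6 (chr11:110174638-110251776) and Abca5 (build GRCm38.p6). Abca8b over Abca8a had a log2 ratio of -0.50 and -0.68 at CT0, -0.67 and -0.38 at CT4, -0.73 and -0.22 at CT8, -0.91 and -1.15 at CT12, -1.28 and -1.26 at CT16, -0.59 and -0.98 at CT20 and -0.57 and -0.54 at CT24. Both CT16 libraries had the lowest ratios. The ratio followed a cosine with a peak at CT3.61 ± 0.772 h and a difference of 0.75 ± 0.16 (permutation p = 0.00258, adjusted over the 13 pairs 0.0335), so the 2 neighbours did not keep one course. The ratio of Abca6 to Abca5 had a difference of 0.71 ± 0.18 with a peak at CT11.3 (permutation p = 0.00797, adjusted 0.0518) and did not pass. Slco1b2 over Slco1a4 (adjusted permutation p = 0.401) and Slco1a4 over Slco1a1 (0.401) on chromosome 6 did not pass either.

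**Figure D5:**
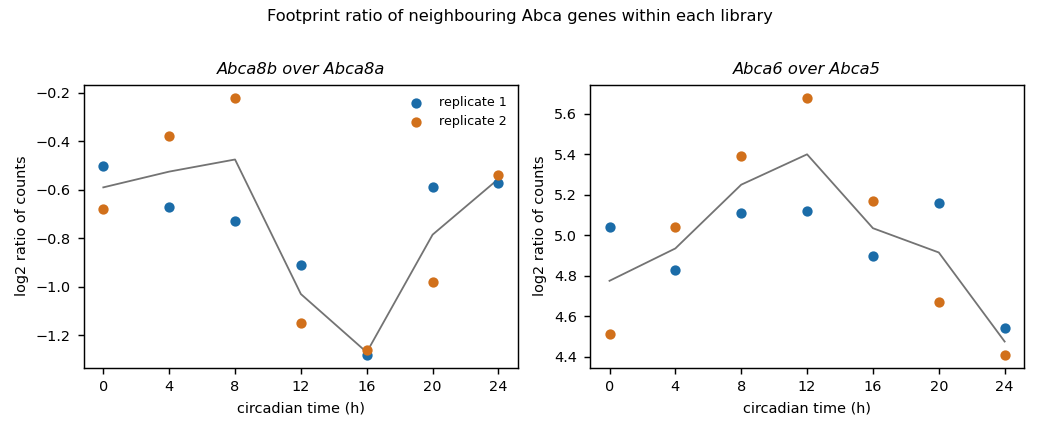
Log2 ratio of footprint counts of neighbouring genes of the ABCA cluster within each library against circadian time (h). Points are libraries and lines join means of 2 mice. Abca8b over Abca8a is lowest at CT16, at -1.28 and -1.26.

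Short motifs of clock and nuclear receptor binding sites were sought on both strands of the RefSeq promoter windows (250 bases before to 50 after a listed start, GRCm38.p6), which 40 of 53 transporters and 8 of 9 called ones had. The E-box CACGTG, bound by CLOCK and BMAL1, was in 6 of the 40 and in 8.09% of all genes with a window. The D-box form TTATGNAA was in 2 (Abcg2 and Slc22a26) against 3.99% of genes, and the half-site AGGTCA, shared by ROR, REV-ERB and other nuclear receptors, in 6 against 18.1%. The stretches of the called genes that hold one are printed because the cosine fit called these genes (Abca8a and Abcf1 in 4 of 14 fits without 1 library each), with the motif in capitals and each read along the gene's strand.
Abca8a (E-box, chr11:110096056-110096085, minus strand): ttcgagaatggtCACGTGaatacagtgctc
Abca8b (E-box, chr11:109995810-109995839, minus strand): gccatgcgcggtCACGTGtccgtggtgttt
Abcf1 (E-box, chr17:35969834-35969863, minus strand): gcccctttgcccCACGTGtctgcgcagcag
Abcc2 (AGGTCA, chr19:43782247-43782276, plus strand): tgtcaggatgaaAGGTCAggagacttgcct
Slco1b2 (AGGTCA on the opposite strand, chr6:141629425-141629454, plus strand): tgtgtaggacagTGACCTgaagagatagtt
The E-box began 136 bases before the listed start of Abca8a (chr11:110095937) and 101 before that of Abcf1. In Abca8b it began at base 19 from the listed start (chr11:109995845). The half-site began 49 before the listed start of Abcc2 and 81 before that of Slco1b2. A listed start is that of the promoter window, which for Abca8a, Abca8b and Slco1b2 lay inside the gene's outer end. Abca8a and Abca8b both held an E-box, and their fitted peaks lay at CT10.6 and CT6.34. A match in a window is a description of its letters.

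Footprints in the 5′UTR were compared with those in the coding region to ask whether their balance changed over the day. Over all 14 libraries the median share of 5′UTR reads was 2.93% in the transporters and 3.63% in all genes. Shares differed between genes from 0%, as in Slc22a30 and Abcb10, to 23.7% in Slc22a15, 16.7% in Abce1 (a ribosome recycling factor), 15.0% in Abca3 and 12.7% in Slco1a1. Per length, 5′UTR density exceeded coding density in 10 of 52 transporters with an annotated 5′UTR, where it did in 18.1% of genes. Slco1a1 had from 6.83% to 17.0% of its reads in the 5′UTR across libraries, and Slco1b2 from 1.56% to 4.72%. The log2 ratio of 5′UTR to coding counts was tested in 23 transporters with a mean of at least 10 reads in each region. With limma, 0 of 23 followed a 24 h course, where 0.0% of 7640 transcripts did. Of all transcripts 377 had an unadjusted p under 0.05, and none of the transporters, of which Slco1a4 had the lowest at 0.111 (limma).

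For comparison, 12 of 15 listed other hepatic transporter genes met the minimum and were tested, of which 5 passed the cosine fit, against 11.3% of all genes. Among them were the 3 ABC genes set aside. Abcb11, the bile salt export pump, peaked at CT4.35 ± 0.625 h (0.72 ± 0.13 log2 units, adjusted p = 0.00454, edgeR), while Abcc2 at the same membrane peaked at CT11.4 (their difference was not tested). Abcg5 and Abcg8, which form the sterol exporter, peaked at CT10.9 ± 1.19 h and CT8.7 ± 0.797 h with adjusted p of 0.0169 and 0.00186 (edgeR). The bile salt importer Slc10a1 had a difference of 0.24 ± 0.11 (adjusted p = 0.393). Of 19 regulators and partners of these transporters 4 passed, again against 11.3% of all genes, namely Nr1h4 (the bile acid receptor FXR, peak at CT15.8), Ppara (the fatty acid receptor, CT11.1), Por (the reductase of cytochromes P450, CT14.8) and Alas1 (haem synthesis, CT15.5), with adjusted p of 0.00295, 0.00864, 4.17e-07 and 0.00029 (edgeR). The xenobiotic receptors Nr1i2 and Nr1i3 had adjusted p of 0.11 and 0.169.

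Markers of other cells were read in the same fit, which called 11.3% of all genes. Of those tested, 0 of 6 Kupffer cell, 0 of 6 endothelial, 1 of 6 stellate (Pdgfrb), 1 of 5 bile duct (Sox9) and 0 of 2 erythroid markers passed. Of the hepatocyte list, 3 of 8 genes passed. Summed Kupffer markers ranged from 83.8 to 149 CPM and endothelial ones from 99.9 to 160 CPM. The Kupffer sum was lowest in CT16 replicate 1, and the endothelial, stellate and bile duct sums in CT16 replicate 2. The erythroid sum was lowest in CT12 replicate 2. Fitted peaks of the Kupffer, endothelial and stellate markers lay between CT1.22 and CT9.24, apart from Lyve1 at CT22.9 and Lrat at CT23.8. The part of these cells in the low CT16 levels of Abca8b, Slc22a15 and Slc22a28 was not tested. All 5 acinar markers passed with peaks at CT18.6 to CT19.2, and their level came from CT20 replicate 2. Their part in the transporters' courses was not tested beyond the fits without that library given above.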

How the data were processed

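The authors deposited raw counts for each of 14 libraries, one number each for the coding region, the leader and the 3′ region of 28167 RefSeq transcripts (mm10), and the region lengths. Per the study's methods, adapters were clipped, rRNA reads removed and the rest aligned with Bowtie (version 2.1.0.0 in the submitters' processing notes) and filtered with SAMtools 0.1.19.0. The methods name uniquely placed reads for the density profiles. Whether the deposited counts were limited to them, and how a read shared by transcripts of a gene was counted, is not given in the sources used here, and 4002 transcripts duplicated the counts of another one. Samples were grouped by the time in their titles. For the last pair the title holds CT24 in its replicate name and CT00 in its first part, as does the time field, and the replicate name was used. A transcript's 3 regions were summed. Symbols came from RefSeq tables, which with GENCODE named 27956 transcripts.

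Members and lists were chosen with earlier results of these data known. Each gene was taken as its most read transcript. Transcripts averaging 10 or more counts (17299) were fitted in edgeR 4.0.16 (R 4.3.3) with TMM factors on the total count, by a 24 h cosine or a level per time. Adjusted p-values are Benjamini-Hochberg over all transcripts. A called gene had an adjusted p under 0.05. Standard errors come from least squares on log2 CPM with a prior of 0.5 counts. limma 3.58.1 tested the log2 ratio of leader (5′UTR) to coding counts (pseudocount 0.5). DESeq2 1.42.0 and JTK_CYCLE (written anew, lags every 2 h, Python 3.11.15) were alternatives. The statistical steps were tested on simulated data. The study's text gives 2 mice per time, while the labels give replicate numbers without animals. An SD within a time rests on 2 values. The main fits did not pair libraries by replicate number. Deviations of same-numbered libraries nonetheless correlated over 0.1 in 13 of 21 pairs of times (median 0.166, range -0.123 to 0.501). A fit with a replicate block is given below as an alternative. Named were called genes, the 12 densest, genes at the minimum and 12 textbook transporters, except genes that are not reported here.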

Additional observations from a re-analysis of the deposited data

How the results depend on the processing

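The cosine fit called 9 transporters and 11.3% of all transcripts. The count was 1 with total-count scaling (8.25% of transcripts), 3 with JTK_CYCLE on TMM values (3.45%) and 1 on total-count values (1.47%). It ranged from 5 to 10 when 1 library was left out (8.66% to 11.9% of transcripts), with 5 without CT16 replicate 2 (9.03%). With both libraries of a time left out, it was 4 for CT0 (8.08% of transcripts), 5 for CT4 (7.53%) and 3 for CT8 (6.72%). It was 5 for CT12 (6.13%), 5 for CT16 (8.55%), 9 for CT20 (11.4%) and 6 for CT24 (10.1%). Slco2b1 and Slc22a28 each lost their call in 5 of these 7 fits, and Abcf1 and Abca8a in 6. DESeq2's test gave 12 of 51 (14.7% of transcripts) and TMM without Mup transcripts 10 (11.3%). Shares under DESeq2 are of all 17299 transcripts, including those without an adjusted p. The 7-time fit called 4, with 7 of 51 under DESeq2 (12.8% of transcripts). Under total-count scaling it called 6 (12.7%), none shared with the 4. With 1 library left out it called 2 to 5 (4.95% to 8.22% of transcripts), with 2 without CT0 replicate 1 (5.42%). The CT24 and 5′UTR tests called 0 under every alternative run that gave a value. The replicate block gave 11 calls (9 shared, 11.1% of transcripts) in the cosine fit, with Abcb4 at an adjusted p of 0.0333 (edgeR). In the 7-time fit it gave 4 (7.43% of transcripts). Total count without Mup transcripts and the joint removal of 2 libraries were chosen after seeing the data. The cause of the differences between settings was not tested, except that the total count holds the Mup reads. Some members rest on few reads, among them the called genes Slc22a15 and Slc22a28, and the effect of depth on their calls was not tested.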
